A study of Mus musculus with 34 samples.

Results

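The DNA replication genes described here are 45 protein-coding mouse genes, followed across skin exposed to ionizing radiation. Their products license and fire replication origins, copy DNA and chromatin, or supply nucleotides. The genes were taken by symbol from 2 deposited expression tables, and all 45 were found once among the 47633 rows of each table. The list goes by gene role and by no measured value of the genes, but it was drawn up with earlier results of these data known. All 45 members reached 1 FPKM (mapped fragments per unit of transcript length and of library size) in at least 1 group of each tissue.

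The study sequenced total RNA from the skin of mice aged 8 to 10 weeks in 34 samples. Back skin, taken with its hair in the growth phase, came from p53 knockout, Krt17 knockout and wild-type mice without irradiation (0 h) and 6 h or 24 h after 5 Gy, with 2 samples in each of 9 groups. Footpad skin came from Krt17 knockout and wild-type mice either unirradiated (T0) or taken after 40 Gy at T3, T6 or T9, again with 2 samples in each of 8 groups. The labels give no time unit for T3, T6 and T9, and they give neither the kind of knockout allele nor the strain or sex. Krt17 encodes a keratin of hair follicles and stressed epidermis, and Trp53 encodes p53, the transcription factor activated by DNA damage.

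The tables hold 1 mean per group and no value per sample. Every difference below is therefore a size with no replicate check, no error and no test. A ratio is the log2 of (mean FPKM + 1) in the first group over the second, so a value of -1 is a level 2-fold lower on that scale, and low genes are understated by it. Counts of members at least 2-fold or at least 1.5-fold apart are set beside the share of all genes that far apart in the same direction. Counts of members above or below 0, or highest or lowest at a time, are given without such a share.

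Replication begins when the origin recognition complex, CDC6 and CDT1 load the ring of MCM2 to MCM7 onto origins in G1, which licenses them. On entry into S phase, cyclin E with its kinase, CDC45 and the GINS complex turn that ring into the active helicase, polymerase alpha-primase lays primers, polymerases delta and epsilon extend them with the PCNA clamp, and FEN1 and DNA ligase I join the fragments. In growing hair the matrix cells of the bulb, and in footpad the basal keratinocytes, supply most of the dividing cells. Many of these genes are known targets of the E2F transcription factors, and p53 is known to lower them through p21, the product of Cdkn1a, which keeps RB-family repressors on E2F sites.

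Promoter sequence was available for 37 of the 45 members, as 43 promoters that each run from 250 bases before to 50 bases after a RefSeq transcription start (GRCm38.p6). Mcm4, Gins1, Gins2, Gins4, Ccne2, Prim2, Pole and Rfc2 had no entry. An E2F motif, searched on both strands as TTCCCGC or else TTCGCGC or else TTGCCGC or else TTGGCGC, was present in 25 of the 37 genes (67.6%), against 10.9% of all 27025 genes in the table. Related gene lists had high shares too, at 65.2% of 23 DNA repair genes, 50% of 20 E2F, RB and S-phase regulators and 47.2% of 36 other replication factors. The share was 33.3% for inhibitors of cyclin-dependent kinases, which is 2 of only 6 genes, and 11.5% for 26 mitosis genes. Counted by promoter, the share was 65.1% of 43 member promoters, against 9.57% of 32851 promoters of the same length. The NF-Y box CCAAT stood in 62.2% of the member genes and 41.1% of all genes, and the CHR motif TTTGAA in 13.5% and 20.2%. Neighbouring motifs can share letters, and the median GC content was 61.3% in member promoters against 52.7% in all promoters. A match is only a run of letters and was not tested as a binding site.

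The promoters below are shown because Mcm6 and Mcm5 held the most E2F matches among members at least 2-fold lower in irradiated wild-type back skin at 24 h, Pola1 stood lowest of the members there at 6 h, and Tk1, also at least 2-fold lower at 24 h, held none. Capitals mark E2F matches on either strand, and overlapping matches run together. Mcm6 has 5 matches, of which 2 pairs share letters, Mcm5 has 3, of which 1 pair shares letters, and Pola1 has 4.
Mcm6 (chr1:128359656-128359955, - strand): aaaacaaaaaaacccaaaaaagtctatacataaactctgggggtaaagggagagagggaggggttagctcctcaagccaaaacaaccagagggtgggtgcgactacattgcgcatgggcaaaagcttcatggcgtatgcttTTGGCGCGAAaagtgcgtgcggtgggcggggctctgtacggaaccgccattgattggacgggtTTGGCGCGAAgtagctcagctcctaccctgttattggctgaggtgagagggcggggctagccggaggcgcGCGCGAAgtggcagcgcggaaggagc
Mcm5 (chr8:75109259-75109558, + strand): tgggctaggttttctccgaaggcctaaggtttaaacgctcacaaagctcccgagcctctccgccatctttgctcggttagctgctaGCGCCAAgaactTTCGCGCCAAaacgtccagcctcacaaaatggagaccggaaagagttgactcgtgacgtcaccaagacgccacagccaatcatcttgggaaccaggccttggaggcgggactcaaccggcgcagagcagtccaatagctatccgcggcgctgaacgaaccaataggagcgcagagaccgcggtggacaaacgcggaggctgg
Pola1 (chrX:93632106-93632405, - strand): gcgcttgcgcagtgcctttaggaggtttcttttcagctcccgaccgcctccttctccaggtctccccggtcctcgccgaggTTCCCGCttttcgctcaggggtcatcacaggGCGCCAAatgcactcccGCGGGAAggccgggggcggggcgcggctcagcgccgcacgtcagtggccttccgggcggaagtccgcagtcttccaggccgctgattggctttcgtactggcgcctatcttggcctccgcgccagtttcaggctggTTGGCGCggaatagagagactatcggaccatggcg
Tk1 (chr11:117825965-117826264, - strand): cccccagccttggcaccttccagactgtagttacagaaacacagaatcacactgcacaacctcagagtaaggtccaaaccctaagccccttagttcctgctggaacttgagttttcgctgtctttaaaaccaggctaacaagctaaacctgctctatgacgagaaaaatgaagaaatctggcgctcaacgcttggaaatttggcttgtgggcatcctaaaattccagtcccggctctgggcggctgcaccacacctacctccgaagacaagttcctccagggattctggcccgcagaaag

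Over 0, 6 and 24 h, the 45 members summed to 1001, 972 and 1052 FPKM in p53 knockout back skin, 901, 663 and 591 FPKM in Krt17 knockout skin, and 843, 657 and 470 FPKM in wild-type skin. The sum thus stood lower after irradiation in the Krt17 knockout and wild-type groups, and within a narrow band in the p53 knockout. As a share of all FPKM it was 0.103%, 0.104% and 0.120% in p53 knockout skin, 0.0994%, 0.0664% and 0.0550% in Krt17 knockout skin, and 0.0987%, 0.0720% and 0.0429% in wild-type skin. In these whole-tissue samples, fewer dividing cells and less RNA per cell cannot be told apart.

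Krt17 was 14.7 to 29.9 FPKM in Krt17 knockout back skin, against 883 to 1919 FPKM in the other back skin groups. In footpad the gap was smaller, with Krt17 over T0 to T9 at 18.2, 26.2, 68.1 and 58.8 FPKM in Krt17 knockout skin and 124, 92.6, 183 and 835 FPKM in wild-type skin. It was lower in the knockout at each point, but the highest knockout level lay near the lowest wild-type level. Trp53 over 0, 6 and 24 h was 25.8, 18 and 28.8 FPKM in p53 knockout skin, 30.1, 28.6 and 20.9 FPKM in Krt17 knockout skin, and 43.8, 19.3 and 21.5 FPKM in wild-type skin. The p53 knockout level at 24 h thus exceeded that of wild-type skin. The level of this gene gives no check of the p53 knockout label, the kind of allele is not given, and every difference reported for that genotype rests on the label. Hair shaft and matrix markers summed to 2605 to 9118 FPKM in back skin and 11.0 to 30.7 FPKM in footpad, and the footpad keratin Krt9 was 158 to 697 FPKM in footpad and at most 1.29 FPKM in back skin. The FPKM totals ran from 854202 to 1095024, and 14972 genes in back skin and 13740 in footpad passed the filter.

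**Figure D1:**
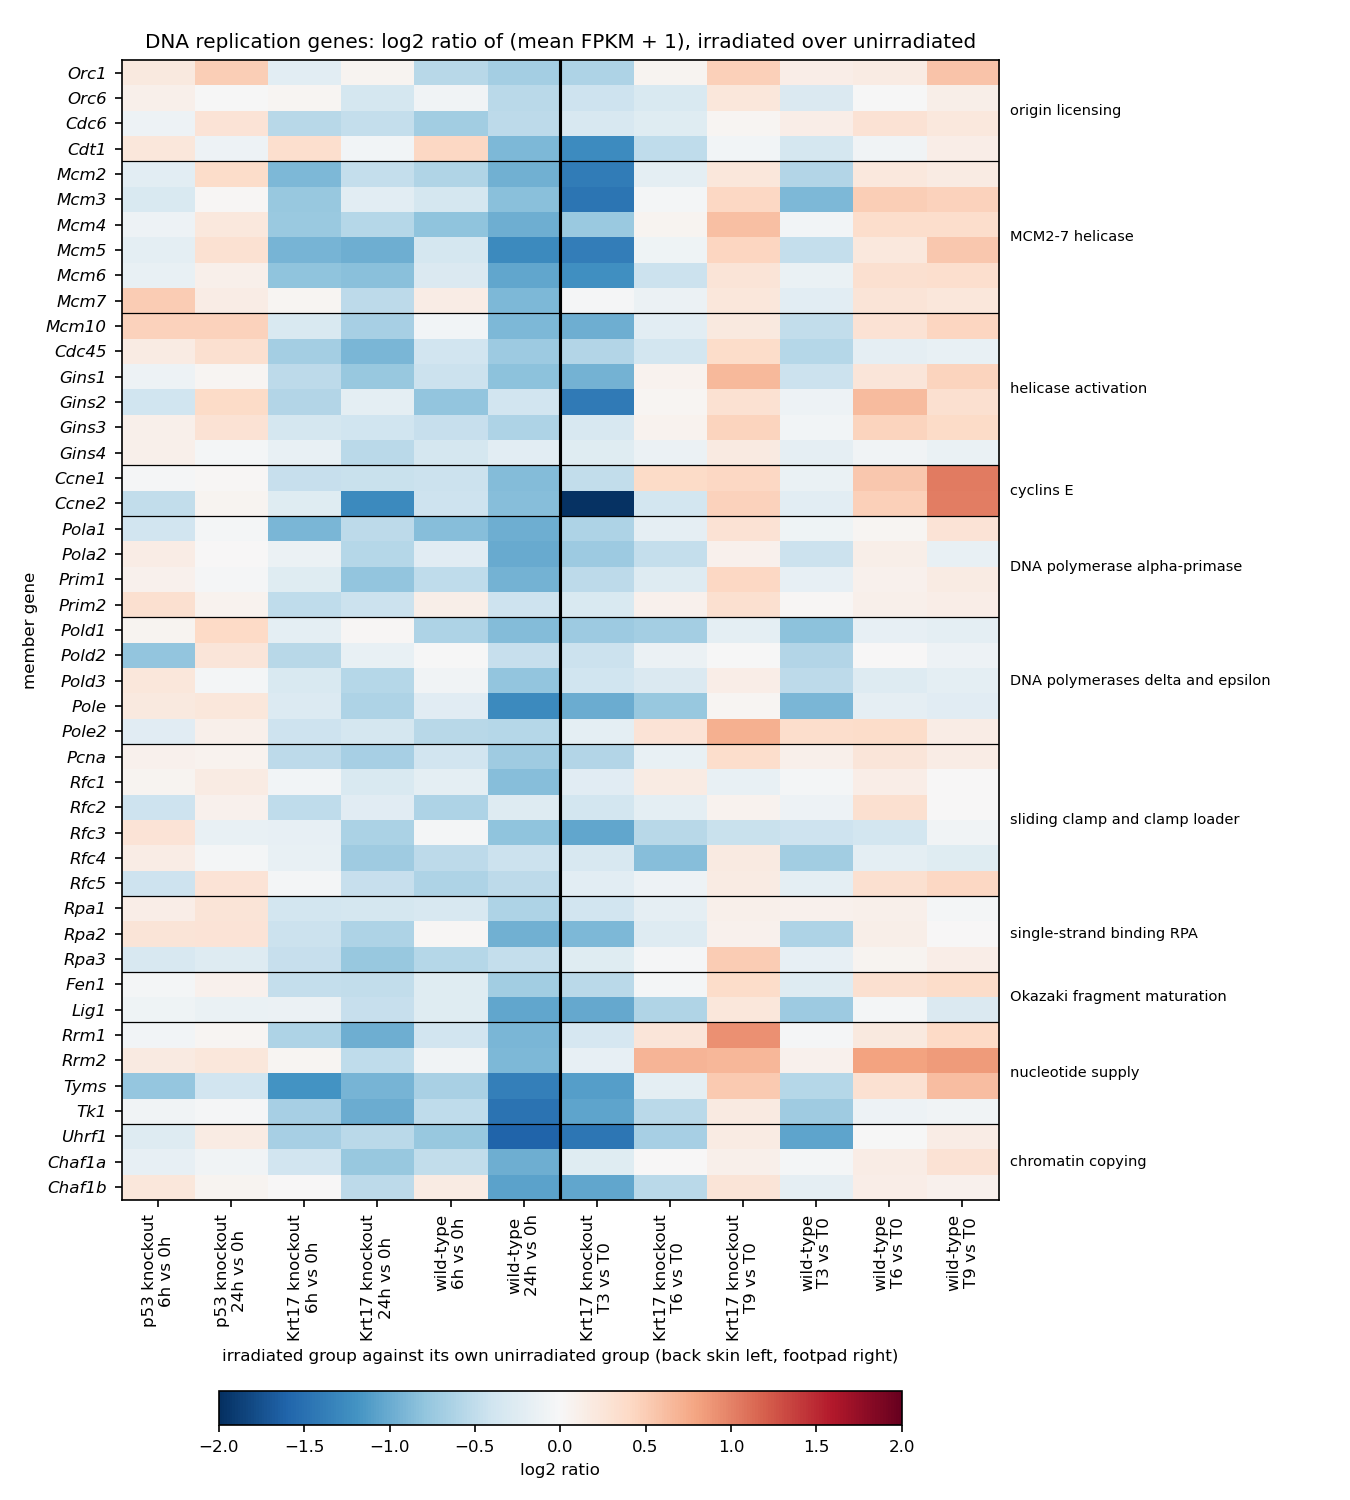
Log2 ratio of (mean FPKM + 1) of every member gene (rows, grouped by role) in each irradiated group against its own unirradiated group (columns, back skin left and footpad right), with blue for lower and red for higher. The wild-type 24 h column is blue for all 45 members and the p53 knockout 24 h column is mostly pale red, with 13 members below 0. In the Krt17 knockout T3 column all 45 are blue, with Ccne2 darkest at -1.97.

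In wild-type back skin, all 45 replication genes were lower 24 h after 5 Gy than in unirradiated skin, with a median log2 ratio of -0.85, against -0.20 over all 14968 genes compared. The ratios ran from -1.61 for Uhrf1 to -0.22 for Gins4. Among the members, 9 were at least 2-fold lower, where 3.41% of all genes were, and 34 were at least 1.5-fold lower, where 15.9% of all genes were. No member was 1.5-fold higher, where 5.26% of all genes were. Rescaling every group to a common median moves the median of all genes in this comparison to 0. Then 44 members stayed below 0, the member median was -0.64 and 5 were at least 2-fold lower, where 1.78% of all genes were. With 0.1 FPKM added in place of 1, 20 were, where 8.32% of all genes were.

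At 6 h in wild-type skin the members stood closer to the unirradiated level. Their median was -0.38 against -0.15 over all genes, 40 of 45 were below 0 (34 after rescaling), and none was 2-fold lower, where 3.17% of all genes were. At least 1.5-fold lower were 10 members beside 14.8% of all genes, so that count by itself is little above the background. After rescaling it was 3 members beside 8.51% of all genes, and so no higher than the background. Pola1, the catalytic subunit of the priming polymerase, stood lowest at -0.86, followed by Mcm4 at -0.81 and Gins2 at -0.79. Cdt1 at 0.41, Chaf1b at 0.16 and Mcm7 at 0.14 stood highest. Of the 45 members, 33 were lower at 6 h than at 0 h and lower again at 24 h, and 38 had their lowest wild-type level at 24 h. The share of all genes with these paths was not counted, and their medians against 0 h were also below 0, at -0.15 and -0.20.

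**Figure D2:**
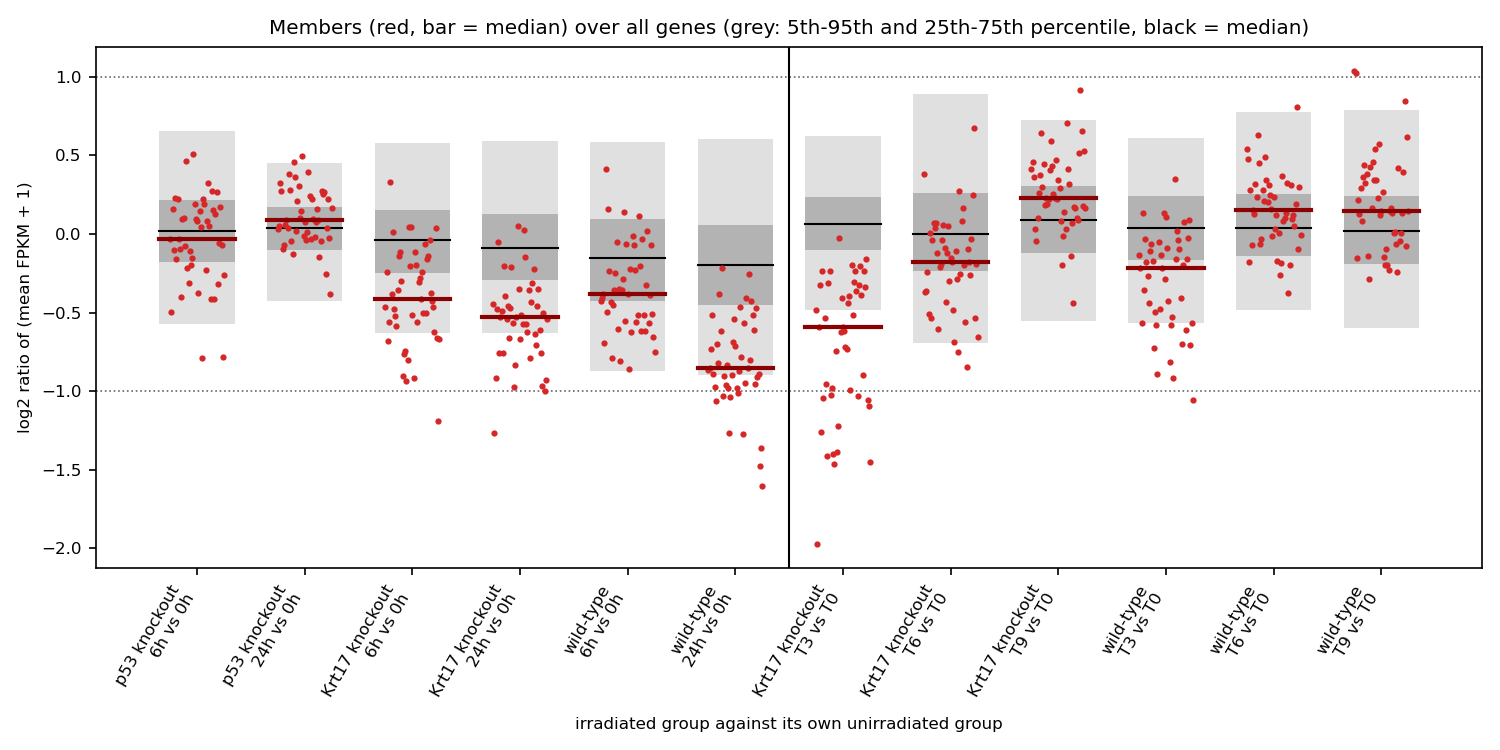
Log2 ratio of (mean FPKM + 1) of each member (red points, dark red line for the median) in each irradiated group against its own unirradiated group, over the spread of all genes (pale grey 5th to 95th percentile, dark grey 25th to 75th, black line for the median). Dotted lines mark 2-fold. The member median lies farthest below that of all genes in wild-type back skin at 24 h (-0.85) and Krt17 knockout footpad at T3 (-0.59).

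Among the licensing factors, Cdt1 (chr8:122568015-122573554, + strand), which brings the MCM ring to origins and is destroyed in S phase, had levels at 0, 6 and 24 h of 9.19, 11.0 and 8.52 FPKM in p53 knockout skin, 6.13, 7.95 and 5.87 FPKM in Krt17 knockout skin, and 7.78, 10.7 and 3.73 FPKM in wild-type skin. Its 6 h level was the highest of the 3 times in every genotype, and the 24 h level lay far below the other times in wild-type skin. From 6 h to 24 h in wild-type skin its ratio was -1.31, the lowest of all members for that step. Cdc6 (chr11:98907801-98923940, + strand), the loading ATPase, stood at 3.93, 3.60 and 4.98 FPKM in p53 knockout skin, 3.79, 2.25 and 2.45 FPKM in Krt17 knockout skin, and 3.93, 2.05 and 2.44 FPKM in wild-type skin. Both the Krt17 knockout and the wild-type level were thus low by 6 h and no lower at 24 h. Orc1 (chr4:108579423-108614833, + strand), the origin-binding ATPase, was a low gene at 1.23, 1.55 and 2.16 FPKM in p53 knockout skin, 1.0, 0.738 and 1.08 FPKM in Krt17 knockout skin, and 1.74, 0.866 and 0.701 FPKM in wild-type skin. The wild-type levels run downward and the p53 knockout levels upward. The 4 licensing factors had a median ratio of -0.61 in wild-type skin at 24 h, and Orc6 made up the group.

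The MCM2-7 helicase genes were lower as a block, with a median of -0.97 in wild-type skin at 24 h and all 6 at least 1.5-fold lower. Mcm5 (chr8:75109569-75128439, + strand), whose promoter is printed above, stood at 19.2, 16.6 and 23.9 FPKM in p53 knockout skin, 18.9, 9.41 and 9.11 FPKM in Krt17 knockout skin, and 18.4, 14.2 and 7.06 FPKM in wild-type skin. The 3 genotypes lay close together before irradiation and apart at 24 h, with a wild-type ratio of -1.27. Mcm2 (chr6:88883474-88898780, - strand) stood at 15.6, 13.3 and 20.4 FPKM in p53 knockout skin, 15.2, 7.70 and 10.7 FPKM in Krt17 knockout skin, and 16.2, 10.3 and 7.85 FPKM in wild-type skin. Mcm7 was the only subunit not lower at 6 h, at 38.4, 55.1 and 42.7 FPKM in p53 knockout skin, 38.0, 39.3 and 26.1 FPKM in Krt17 knockout skin, and 36.2, 40.1 and 19.0 FPKM in wild-type skin. Its exons overlap those of Ap4m1 on the other strand, and it hosts Mir25 and Mir93.

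Of the 6 helicase activators, all were lower in wild-type skin at 24 h with a median of -0.68. Mcm10 (chr2:4989714-5012791, - strand), which helps the helicase start, stood at 6.44, 9.29 and 9.22 FPKM in p53 knockout skin, 6.85, 5.38 and 3.97 FPKM in Krt17 knockout skin, and 6.67, 6.40 and 3.11 FPKM in wild-type skin. Its p53 knockout levels were above the unirradiated level at both times. Cdc45 (chr16:18780447-18811987, - strand), part of the active helicase, stood at 9.66, 10.9 and 12.4 FPKM in p53 knockout skin, 10.6, 6.25 and 5.16 FPKM in Krt17 knockout skin, and 7.92, 5.83 and 4.37 FPKM in wild-type skin. Gins1 (chr2:150905400-150931280, + strand), a GINS subunit, stood at 18.7, 17.5 and 19.2 FPKM in p53 knockout skin, 14.8, 10.0 and 8.36 FPKM in Krt17 knockout skin, and 13.4, 9.68 and 7.17 FPKM in wild-type skin. Both genes were lower at each later time in Krt17 knockout and wild-type skin. The GINS subunits stood at unlike ratios in wild-type skin at 24 h, since Gins4 stood at -0.22 and Gins2 at -0.38, both among the 3 members closest to 0, and Gins2 shares 2758 bases of exon with Gse1 on the other strand.

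Cyclins E, which drive entry into S phase, were low genes. Ccne2 (chr4:11191351-11204779, + strand) stood at 4.36, 2.80 and 4.54 FPKM in p53 knockout skin, 3.31, 2.64 and 0.790 FPKM in Krt17 knockout skin, and 2.61, 1.72 and 0.996 FPKM in wild-type skin. It was the single member at least 2-fold lower in Krt17 knockout skin at 24 h, at -1.27. Ccne1 (chr7:38097984-38107534, - strand) stood at 4.66, 4.55 and 4.79 FPKM in p53 knockout skin, 4.98, 3.33 and 3.39 FPKM in Krt17 knockout skin, and 5.23, 3.63 and 2.42 FPKM in wild-type skin. Both cyclins stood at nearly the same ratio in wild-type skin at 24 h, -0.86 for Ccne1 and -0.85 for Ccne2.

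Polymerase alpha-primase had a median of -0.96 in wild-type skin at 24 h over its 4 genes. Pola1 (chrX:93304767-93632155, - strand) stood at 3.72, 2.63 and 3.60 FPKM in p53 knockout skin, 2.69, 0.952 and 1.58 FPKM in Krt17 knockout skin, and 3.25, 1.34 and 1.15 FPKM in wild-type skin. It was lowest at 6 h in both knockouts, and in wild-type skin most of its difference was present by 6 h. Prim1 (chr10:128015168-128030037, + strand), the catalytic primase subunit, stood at 27.4, 29.1 and 27.1 FPKM in p53 knockout skin, 22.3, 18.7 and 12.4 FPKM in Krt17 knockout skin, and 21.6, 14.8 and 10.7 FPKM in wild-type skin. The p53 knockout levels barely differed, while those of the other genotypes were lower at each later time.

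The polymerase delta and epsilon genes had a median of -0.78 in wild-type skin at 24 h. Pole (chr5:110286306-110337474, + strand), the catalytic subunit of the leading-strand polymerase, stood at 6.88, 8.00 and 8.19 FPKM in p53 knockout skin, 8.10, 6.49 and 4.90 FPKM in Krt17 knockout skin, and 7.09, 5.89 and 2.35 FPKM in wild-type skin, a wild-type ratio of -1.27 at 24 h. Pold1 (chr7:44532746-44548849, - strand), the catalytic subunit of polymerase delta, stood at 13.7, 14.2 and 18.4 FPKM in p53 knockout skin, 14.6, 12.6 and 14.8 FPKM in Krt17 knockout skin, and 17.4, 11.0 and 9.07 FPKM in wild-type skin. Pold1 was thus lower at 24 h than at 0 h in wild-type skin and not in either knockout.

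The sliding clamp and its loader had a median of -0.62 in wild-type skin at 24 h. Pcna (chr2:132249162-132253314, - strand), the clamp and the most abundant member, stood at 147, 155 and 155 FPKM in p53 knockout skin, 127, 88.6 and 79.6 FPKM in Krt17 knockout skin, and 109, 83.7 and 66.2 FPKM in wild-type skin. The gap between p53 knockout and wild-type Pcna was present before irradiation and wider after it. Rfc3 (chr5:151642756-151651242, - strand), a clamp loader subunit, stood at 21.5, 26.2 and 19.3 FPKM in p53 knockout skin, 19.0, 16.9 and 11.9 FPKM in Krt17 knockout skin, and 16.6, 16.1 and 9.07 FPKM in wild-type skin. Rfc1 (chr5:65261850-65335670, - strand), the large loader subunit, stood at 10.6, 11.0 and 11.9 FPKM in p53 knockout skin, 9.85, 9.40 and 7.74 FPKM in Krt17 knockout skin, and 9.70, 8.30 and 4.92 FPKM in wild-type skin. For both these loader genes the wild-type difference lay mainly between 6 h and 24 h. The other loader genes were lowest at 6 h in wild-type skin. There Rfc2 stood at 47.2, 30.4 and 39.4 FPKM, Rfc4 at 18.2, 12.4 and 13.3 FPKM, and Rfc5 at 10.1, 6.22 and 6.75 FPKM.

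The RPA genes, which coat single-stranded DNA, had a median of -0.61 in wild-type skin at 24 h. Rpa2 (chr4:132768332-132778752, + strand), the subunit phosphorylated after damage, stood at 21.2, 25.7 and 25.7 FPKM in p53 knockout skin, 19.8, 14.5 and 12.6 FPKM in Krt17 knockout skin, and 17.7, 17.9 and 8.63 FPKM in wild-type skin. Wild-type Rpa2 was level at 6 h and low at 24 h, whereas in Krt17 knockout skin it was already low at 6 h. Rpa1 (chr11:75298166-75348324, - strand), the large subunit, stood at 23.9, 26.2 and 28.7 FPKM in p53 knockout skin, 25.9, 19.7 and 20.1 FPKM in Krt17 knockout skin, and 28.6, 22.7 and 18.4 FPKM in wild-type skin. Of the genes that finish lagging-strand fragments, Lig1 (chr7:13277283-13311433, + strand), the DNA ligase, stood at 18.5, 17.4 and 16.8 FPKM in p53 knockout skin, 17.2, 15.8 and 12.3 FPKM in Krt17 knockout skin, and 19.5, 16.3 and 9.02 FPKM in wild-type skin. Lig1 was lower at each later time in all 3 genotypes, and it is the only member for which that held in p53 knockout skin. Fen1 (chr19:10199132-10204169, - strand), the flap nuclease, stood at 19.4, 19.0 and 20.7 FPKM in p53 knockout skin, 18.8, 13.2 and 13.1 FPKM in Krt17 knockout skin, and 18, 15.1 and 10.7 FPKM in wild-type skin.

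The nucleotide supply genes stood lowest of the 11 roles in wild-type skin at 24 h, with a median of -1.13. Tk1 (chr11:117815526-117826092, - strand), thymidine kinase, stood at 68.4, 65.2 and 67.1 FPKM in p53 knockout skin, 58.6, 36.6 and 28.8 FPKM in Krt17 knockout skin, and 55.5, 38.7 and 19.3 FPKM in wild-type skin. The p53 knockout levels barely differed, and the wild-type ratio at 24 h was -1.47. Tyms (chr5:30058202-30073617, - strand), thymidylate synthase, stood at 31.8, 18.1 and 24.2 FPKM in p53 knockout skin, 25.9, 10.8 and 13.1 FPKM in Krt17 knockout skin, and 19.8, 12.3 and 7.12 FPKM in wild-type skin. It was lower at 6 h in every genotype, p53 knockout included. Rrm1 (chr7:102441695-102469771, + strand), the large subunit of ribonucleotide reductase, stood at 26.3, 25.2 and 27.1 FPKM in p53 knockout skin, 26.2, 16.7 and 12.9 FPKM in Krt17 knockout skin, and 22.5, 16.9 and 11.5 FPKM in wild-type skin. Rrm2 (chr12:24708241-24714146, + strand), its small subunit, stood at 26.6, 30.1 and 31.3 FPKM in p53 knockout skin, 25.2, 25.9 and 17.5 FPKM in Krt17 knockout skin, and 22.4, 21.2 and 11.6 FPKM in wild-type skin. The subunits thus parted at 6 h, when Rrm1 was low and Rrm2 was level in both Krt17 knockout and wild-type skin.

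Among the genes that copy chromatin, Uhrf1 (chr17:56303321-56323486, + strand), which guides DNA methylation onto new strands, stood at 22.5, 18.6 and 25.3 FPKM in p53 knockout skin, 18.9, 11.5 and 12.6 FPKM in Krt17 knockout skin, and 25.1, 14.5 and 7.57 FPKM in wild-type skin. Its wild-type ratio of -1.61 at 24 h was the lowest of the 45. Chaf1b (chr16:93883901-93906115, + strand), a subunit of the histone chaperone CAF-1, stood at 8.88, 10.5 and 9.29 FPKM in p53 knockout skin, 8.64, 8.72 and 5.67 FPKM in Krt17 knockout skin, and 9.61, 10.8 and 4.07 FPKM in wild-type skin. Like Cdt1, it was highest at 6 h and lowest at 24 h in wild-type skin.

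**Figure D3:**
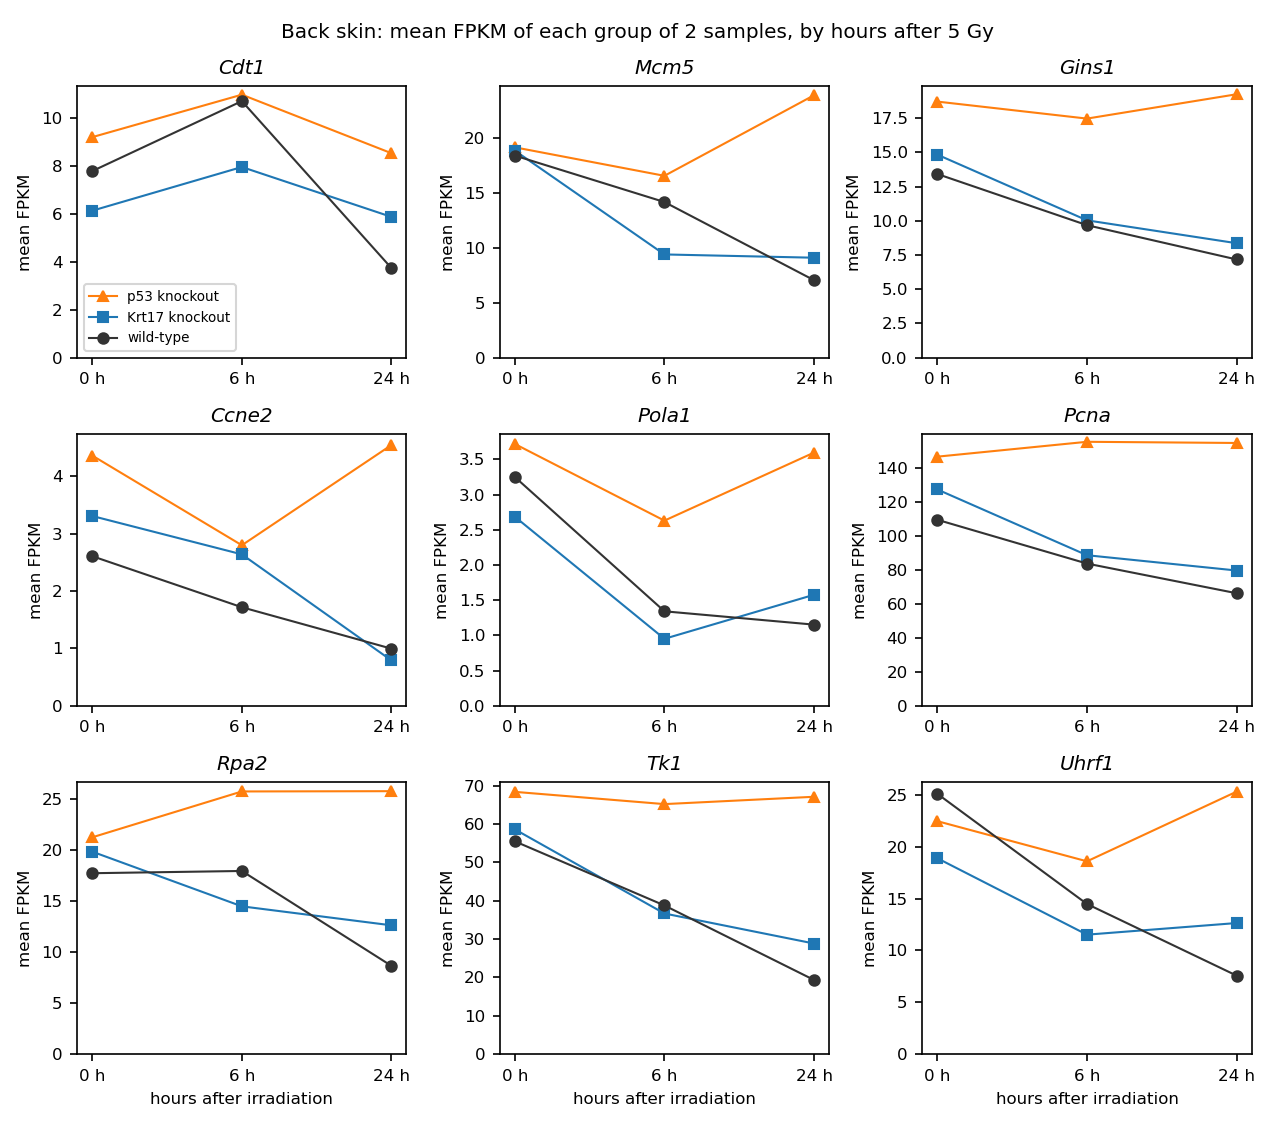
Mean FPKM (vertical axes, from 0) of 9 members in back skin at 0, 6 and 24 h after 5 Gy (horizontal axes, categories), for p53 knockout (orange triangles), Krt17 knockout (blue squares) and wild-type (dark circles) groups of 2 samples each, with no error available. At 24 h the p53 knockout point is the highest in every panel, for example 67.1 FPKM for Tk1 against 19.3 FPKM in wild-type skin.

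In p53 knockout skin the replication genes stood near their unirradiated level after the same dose. The member median was -0.03 at 6 h, beside 0.02 over all genes, and 0.09 at 24 h, beside 0.04. No member was 2-fold lower or higher at 24 h, where 1.06% and 0.908% of all genes were, and none was 1.5-fold apart either way, where 3.01% and 2.89% were. At 6 h 2 members were at least 1.5-fold lower, Pold2 at -0.79 and Tyms at -0.78, where 4.74% of all genes were, while Mcm7 at 0.51 and Mcm10 at 0.47 stood highest. At 24 h 26 of the 45 had their highest p53 knockout level, led by Orc1 at 0.50, Pold1 at 0.39 and Gins2 at 0.38, while Mcm10 at 0.46 was a little higher still at 6 h.

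Set directly against wild-type skin at 24 h, all 45 members were higher in p53 knockout skin, with a median of 1.02 against 0.22 over all genes. At least 2-fold higher were 27 members, where 4.23% of all genes were, and 43 were at least 1.5-fold higher, where 16.6% were. After rescaling to a common median all 45 were still higher, 15 of them at least 2-fold where 2.28% of all genes were, with a median of 0.79. Tk1 at 1.74, Tyms at 1.63 and Mcm5 at 1.63 stood highest, and Gins4 at 0.48, Rfc2 at 0.54 and Rpa1 at 0.62 lowest. By role the medians ran from 0.85 for licensing to 1.5 for nucleotide supply, and all 6 MCM2-7 genes were at least 2-fold higher. Before irradiation the member median was 0.19, beside -0.01 over all genes, with 2 members 1.5-fold higher (Rpa3 at 0.66 and Tyms at 0.65) where 3.72% of all genes were. At 6 h it was 0.48, beside 0.16, with 13 members 1.5-fold higher where 14.8% were. After rescaling 7 were higher and 1 lower by that much, where 8.97% and 6.98% of all genes were.

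The response, taken as the ratio to the genotype's own unirradiated skin, exceeded that of wild-type skin in the p53 knockout for all 45 members at 24 h. The median difference was 0.90 on the log2 scale, beside 0.25 over all genes, and it ran from 0.17 for Gins4 to 1.77 for Uhrf1. At least 2-fold higher were 17 members, where 4.8% of all genes were. After rescaling this became 7 (beside 2.30% of all genes), the median 0.66, and 2 members were below 0. The 2 responses were nearly unrelated at 24 h, with a Pearson r of 0.11 over the 45 members and 0.13 over all genes. At 6 h r was 0.57 over the members and 0.30 over all genes. The 6 h response was higher in p53 knockout skin for 41 of 45 members, or 33 after rescaling. Its median difference was 0.34, beside 0.18 over all genes, and 0.14 beside -0.0044 after rescaling. These r values describe genes that share libraries, which are not independent.

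**Figure D4:**
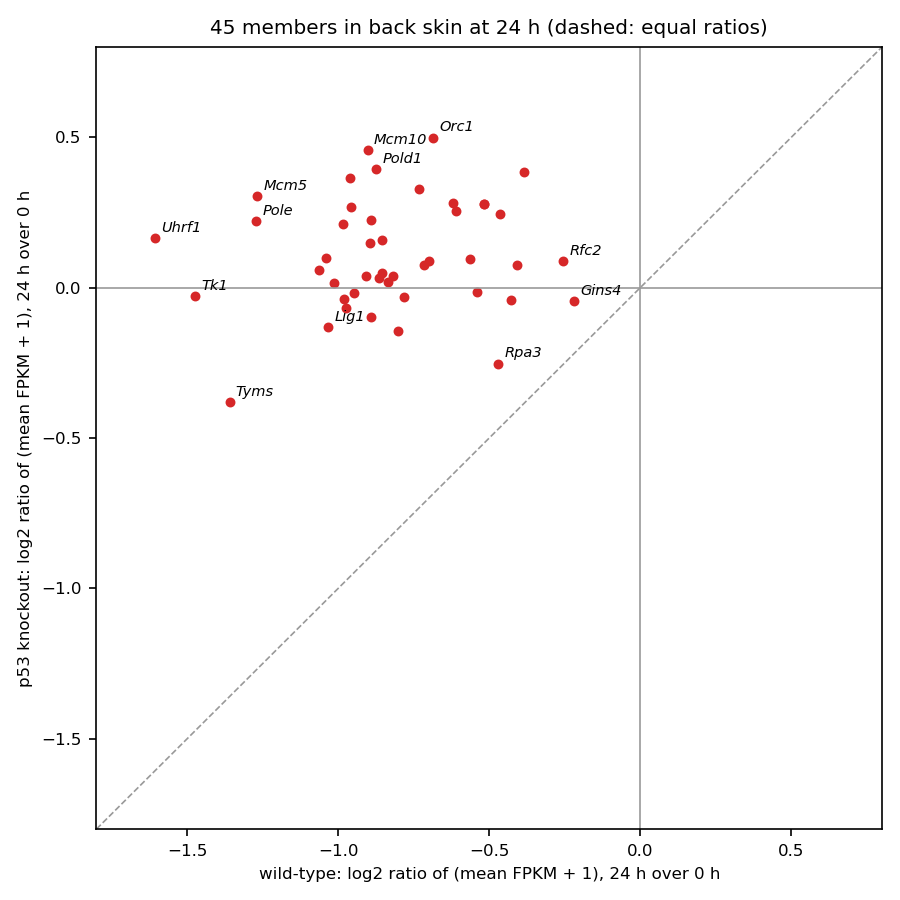
Log2 ratio of (mean FPKM + 1) at 24 h over 0 h in back skin for the 45 members, wild-type on the horizontal axis and p53 knockout on the vertical axis, with the dashed line at equal ratios. All 45 points lie left of 0 and above the dashed line, and the p53 knockout ratios run only from -0.38 for Tyms to 0.50 for Orc1.

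Krt17 knockout back skin lay between these genotypes at 24 h. Its member median was -0.41 at 6 h, beside -0.04 over all genes, and -0.53 at 24 h, beside -0.09. At 24 h 43 members were below 0, of which 1 was at least 2-fold lower, where 1.14% of all genes were, and 17 at least 1.5-fold lower, where 6.1% were. With 0.1 FPKM added in place of 1, 5 were at least 2-fold lower, where 3.29% of all genes were. At 6 h the counts were 1 (Tyms at -1.19) and 12, where 1.12% and 6.17% of all genes were. Of the 45 members, 29 were lowest at 24 h and 16 at 6 h. Among those lowest at 6 h were Mcm2 and Mcm3, at 10.7 FPKM and 25.5 FPKM at 24 h against 7.70 FPKM and 17.1 FPKM at 6 h, so part of the helicase stood higher at the later time.

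Compared directly at 24 h, members were slightly higher in Krt17 knockout than in wild-type skin, with a median of 0.29 beside 0.03 over all genes. At least 1.5-fold higher were 5, where 3.85% of all genes were. With 0.1 FPKM added in place of 1 it was 8, where 7.78% were. Pole at 0.82, Tyms at 0.79 and Uhrf1 at 0.67 led, and Ccne2 at -0.16, Chaf1a at -0.08 and Gins4 at -0.08 stood lowest. The 24 h response was higher in Krt17 knockout than in wild-type skin for 38 of 45 members, or 33 after rescaling, with a median difference of 0.24 beside 0.10. Uhrf1 at 1.06 was the 1 member more than 2-fold apart, where 2.04% of all genes were, followed by Pold1 at 0.90 and Cdt1 at 0.84. After rescaling no member was 2-fold apart, and with 0.1 FPKM added in place of 1, 2 were higher by that much, where 5.81% of all genes were. At 0 h and 6 h the medians were 0.06 and -0.03, with no member and 2 members at least 1.5-fold higher, where 2.57% and 5.25% of all genes were. These comparisons and those of the p53 knockout share the wild-type groups.

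In footpad skin the replication genes were lowest at T3 after 40 Gy. Over T0, T3, T6 and T9 the members summed to 706, 436, 608 and 863 FPKM in Krt17 knockout footpad, and to 619, 498, 685 and 685 FPKM in wild-type footpad. At T3 43 of 45 members in Krt17 knockout footpad and 38 of 45 in wild-type footpad had their lowest level of the 4 points. The highest level came at T9 for 39 members in Krt17 knockout footpad, and at T9 for 20 and T6 for 16 in wild-type footpad. The 6 neutrophil markers summed to 33.2, 275, 3099 and 337 FPKM in Krt17 knockout footpad and 9.61, 219, 59.3 and 3256 FPKM in wild-type footpad, and only S100a8 and S100a9, which keratinocytes also make, reached 1 FPKM. Csf3r, Ly6g, Mmp8 and Camp were at or below 0.459 FPKM in all 8 groups, with Camp listed at 0 in 6 of them. Skeletal muscle markers (8 of 8 measured) summed to 232, 671, 514 and 310 FPKM in Krt17 knockout footpad and 119, 168, 259 and 101 FPKM in wild-type footpad. They were highest at T3 in the knockout, the group where the members were lowest, and at T6 in wild-type skin. Erythroid markers (5 of 5) were also highest at T3 in the knockout, at 341 FPKM against 48.8 to 230 FPKM at its other points, and 60.8 FPKM at T3 in wild-type footpad. The part of these cell types in the members' levels was not tested.

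In Krt17 knockout footpad at T3 all 45 members were below their T0 level, with a median of -0.59 beside 0.06 over all genes. At least 2-fold lower were 13, where 1.14% of all genes were, and 24 were at least 1.5-fold lower, where 3.4% were. Ccne2 at -1.97, Mcm3 at -1.46 and Uhrf1 at -1.45 stood lowest. In wild-type footpad at T3 the median was -0.22 beside 0.04, with 1 member at least 2-fold lower, Uhrf1 at -1.06, where 1.62% of all genes were, and 8 at least 1.5-fold lower, where 4.73% were. Pole at -0.92 and Mcm3 at -0.89 followed, while Pole2 at 0.35, Cdc6 at 0.14 and Orc1 at 0.13 stood highest. With 0.1 FPKM added in place of 1, the wild-type counts were 2 and 14, where 3.39% and 7.66% of all genes were. At T6 the medians were -0.18 in Krt17 knockout and 0.15 in wild-type footpad, beside 0.00 and 0.04 over all genes, and no member was 2-fold lower in either, where 2.23% and 1.34% of all genes were. Rfc4 at -0.85, Pole at -0.75 and Pold1 at -0.69 were still low in the knockout at T6, and Rrm2 stood highest in both, at 0.68 in Krt17 knockout and 0.81 in wild-type footpad.

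The T3 difference was largest in Krt17 knockout footpad for the MCM2-7 helicase, with a median of -1.30, against -0.35 in wild-type footpad. Mcm3 (chr1:20802968-20820312, - strand) had levels, in order of time, of 27.8, 9.43, 27.1 and 37.2 FPKM in Krt17 knockout footpad, and 21.7, 11.2, 30.9 and 30.2 FPKM in wild-type footpad. Mcm5 stood at 10.5, 3.40, 9.80 and 14.5 FPKM in Krt17 knockout footpad, and 8.79, 6.04, 10.3 and 13.3 FPKM in wild-type footpad. Mcm2 stood at 8.84, 2.73, 7.64 and 10.5 FPKM in Krt17 knockout footpad, and 8.20, 5.16, 9.65 and 9.33 FPKM in wild-type footpad. All 3 were lowest at T3 in both genotypes and back near or above T0 by T6. Mcm7 stood apart from its partners, at 22.8, 22.3, 20.8 and 26.8 FPKM in Krt17 knockout footpad, and 21.2, 18.1, 25.4 and 25 FPKM in wild-type footpad.

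Ccne2 had the widest range in footpad, at 7.31, 1.12, 5.45 and 10.4 FPKM in Krt17 knockout footpad, and 3.30, 2.70, 4.97 and 7.76 FPKM in wild-type footpad. It was already higher in the knockout at T0, at 0.95 on the log2 scale, so that its T3 level was lower and its starting level higher than in wild-type footpad. Ccne1 stood at 2.73, 1.66, 3.86 and 3.96 FPKM in Krt17 knockout footpad, and 1.88, 1.63, 3.20 and 4.93 FPKM in wild-type footpad. At T9 the 2 cyclins, at 1.04 for Ccne1 and 1.03 for Ccne2, were the only members at least 2-fold higher than T0 in wild-type footpad, where 3.15% of all genes were.

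Gins2 stood at 11.3, 3.63, 11.7 and 14.2 FPKM in Krt17 knockout footpad, and 9.34, 8.58, 15.0 and 12.0 FPKM in wild-type footpad, with the T3 dip seen in the knockout. Cdt1 stood at 7.39, 2.50, 4.90 and 7.12 FPKM in Krt17 knockout footpad, and 6.09, 4.54, 5.75 and 6.75 FPKM in wild-type footpad. Mcm10 stood at 3.68, 1.37, 3.04 and 4.34 FPKM in Krt17 knockout footpad, and 2.35, 1.37, 3.07 and 3.50 FPKM in wild-type footpad, reaching the same T3 level from a lower start in wild-type skin. Of the chromatin-copying genes, Uhrf1 stood at 13.3, 4.24, 8.08 and 15.1 FPKM in Krt17 knockout footpad, and 12.3, 5.37, 12.2 and 13.6 FPKM in wild-type footpad. Chaf1b stood at 6.17, 2.47, 3.95 and 7.61 FPKM in Krt17 knockout footpad, and 4.83, 4.17, 5.37 and 5.18 FPKM in wild-type footpad. Uhrf1 was low at T3 in both genotypes and Chaf1b chiefly in the knockout.

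Of the nucleotide genes, Rrm2 stood at 13.2, 11.7, 21.7 and 21.4 FPKM in Krt17 knockout footpad, and 10.1, 10.8, 18.4 and 19.0 FPKM in wild-type footpad. It was little lower or level at T3 and higher at T6 and T9 in both. Tyms stood at 19.4, 8.55, 16.9 and 28.4 FPKM in Krt17 knockout footpad, and 14.7, 9.60, 18.3 and 23.1 FPKM in wild-type footpad. Tk1 stood at 63.0, 29.8, 43.1 and 71.3 FPKM in Krt17 knockout footpad, and 53.5, 32.4, 49.9 and 50.6 FPKM in wild-type footpad. Pcna stood at 103, 68.0, 92.8 and 131 FPKM in Krt17 knockout footpad, and 81.6, 87.9, 96.1 and 90.2 FPKM in wild-type footpad, where no dip at T3 was seen. Rrm1 at 0.92, Pole2 at 0.71 and Rrm2 at 0.66 stood highest in Krt17 knockout footpad at T9, when the median was 0.23 beside 0.09 and 5 members were at least 1.5-fold higher where 8.25% of all genes were.

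**Figure D5:**
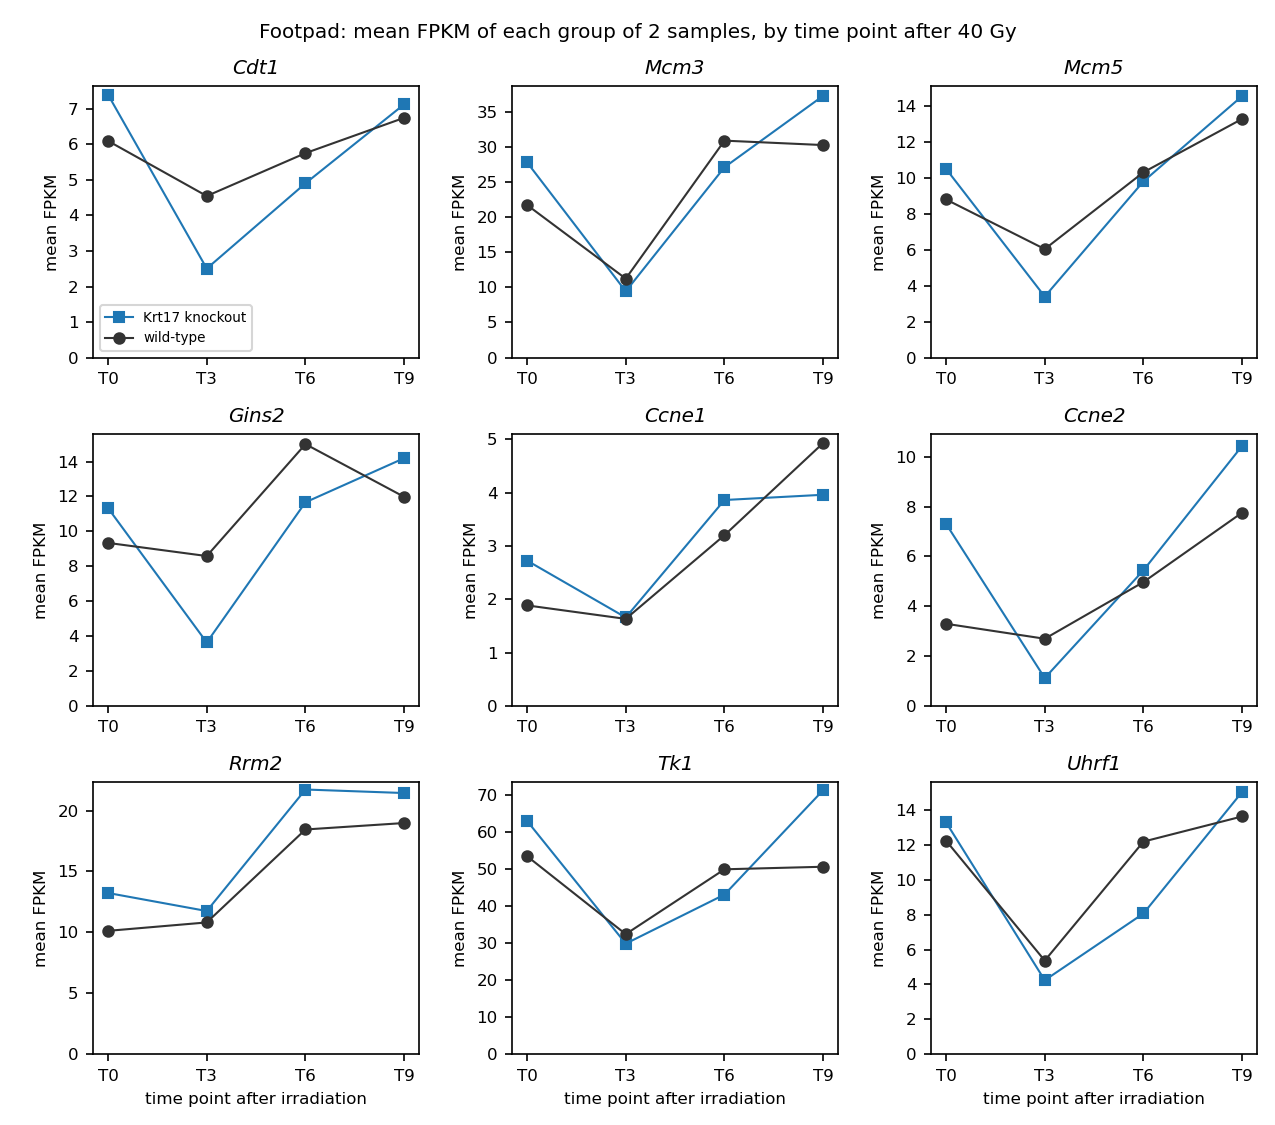
Mean FPKM (vertical axes, from 0) of 9 members in footpad at T0, T3, T6 and T9 after 40 Gy (horizontal axes, categories with no stated unit), for Krt17 knockout (blue squares) and wild-type (dark circles) groups of 2 samples each, with no error available. The T3 points of Mcm3 stand at 9.43 FPKM in Krt17 knockout and 11.2 FPKM in wild-type footpad, while Rrm2 is higher at T6 than at T0 in both.

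Set against each other, the T3 response was lower in Krt17 knockout than in wild-type footpad for 40 of 45 members, with a median difference of -0.35 beside 0.02. At least 2-fold lower were 3 members, where 1.09% of all genes were, namely Ccne2 at -1.76, Gins2 at -1.30 and Mcm6 at -1.09, and 11 were at least 1.5-fold lower, where 4.22% were. With 0.1 FPKM added in place of 1, these counts were 7 and 17, where 2.98% and 7.63% of all genes were. Rfc4 at 0.38 and Mcm7 at 0.19 lay the other way. At T6 the median difference was -0.37 beside -0.05, and at T9 0.06 beside 0.07 (-0.0013 after rescaling). The levels at T3 were lower in the knockout for 34 members, with a median of -0.23, against a median 0.19 higher at T0. Over the 45 members the 2 T3 responses had a Pearson r of 0.51, against 0.41 over all genes.

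Unirradiated levels in the 2 tissues can only be set side by side, since the tables were made separately. The member median was 16.9, 14.8 and 16.2 FPKM in p53 knockout, Krt17 knockout and wild-type back skin, and 10.8 and 9.30 FPKM in Krt17 knockout and wild-type footpad. Pcna was the most abundant member in each of these groups. The wild-type responses at T3 in footpad and at 24 h in back skin share no samples. They had a Pearson r of 0.48 over the 45 members and 0.03 over all genes. By rank the members' correlation was lower, with a Spearman rho of 0.36, and Uhrf1 stood lowest in both.

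Members with an E2F match in the promoter window had medians close to those without in back skin. In wild-type back skin at 24 h the median was -0.89 for 25 members with a match and -0.80 for 12 without. In Krt17 knockout footpad at T3 the medians were -0.54 and -0.59, and in wild-type footpad at T3 -0.18 and -0.46. Tk1 and Tyms, which had no match of the searched letters, were among the 3 lowest members in wild-type back skin at 24 h. No match says only that these letters are absent from this window.

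Other genes of the cell cycle were read from lists drawn up beside the members. Of 43 other replication factors, 9 were at least 2-fold lower in wild-type back skin at 24 h, where 3.41% of all genes were. None was at least 2-fold higher, where 2.14% of all genes were, and the median of the list was -0.63. The share of 3.41% also stands beside the 24 h counts of the other lists in this paragraph. Clspn, the checkpoint adaptor, stood at -1.44 and Hells, a chromatin remodeller, at -1.39, while Pold4 at 0.34 and Pole4 at 0.18, small polymerase subunits, stood highest. Of 28 E2F, RB and S-phase regulators, 4 were at least 2-fold lower, with a median of -0.58, among them Ccna2 (cyclin A) at -1.53 and Mycn at -1.37. Of 30 DNA repair genes, 3 were, with a median of -0.73. Mitosis genes stood lower than the members. Of 30, 27 were at least 2-fold lower, with a median of -1.18, and Mki67 stood at -2.23 and Kif11 at -1.77. At 6 h in wild-type skin the mitosis median was -1.02, beside -0.38 for the replication genes.

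In footpad the order of the 2 groups differed between genotypes at T3. In Krt17 knockout footpad the mitosis median was -0.50, with none of 30 genes at least 2-fold lower, beside -0.59 and 13 of 45 for the replication genes. Of all genes, 1.14% were that much lower there. In wild-type footpad the mitosis median was -1.08, with 17 of 30 at least 2-fold lower, beside -0.22 and 1 of 45, where 1.62% of all genes were. Other replication factors had medians of -0.32 in Krt17 knockout and -0.09 in wild-type footpad at T3, and Top2a (topoisomerase II alpha) at -1.51 and Asf1b at -0.94 stood lowest in wild-type footpad. The difference between these lists was not tested.

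Cdkn1a, which encodes the CDK inhibitor p21 and is a classical p53 target, had levels at 0, 6 and 24 h of 131, 130 and 156 FPKM in p53 knockout back skin, 163, 347 and 240 FPKM in Krt17 knockout skin, and 173, 270 and 259 FPKM in wild-type skin. In footpad, over T0 to T9, its levels were 136, 326, 322 and 317 FPKM in Krt17 knockout skin, and 164, 295, 281 and 362 FPKM in wild-type skin. It was higher than without irradiation in each irradiated Krt17 knockout and wild-type group, and lay within a narrow range in p53 knockout skin. In footpad it was still high at T6 and T9, when the summed replication genes stood near or above T0 in wild-type skin. In Krt17 knockout footpad they summed to 608 FPKM at T6, below the 706 FPKM of T0, and to 863 FPKM at T9. Another CDK inhibitor, Cdkn2c, stood at -1.23 in wild-type back skin at 24 h. Whether these levels bear on those of the members was not tested.

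Cell type markers also differed between the back skin groups. Fibroblast markers (6 of 6 measured) summed, over the times in order, to 978, 1551 and 1056 FPKM in p53 knockout skin, 1593, 1116 and 778 FPKM in Krt17 knockout skin, and 1995, 1248 and 650 FPKM in wild-type skin. Skeletal muscle markers (8 of 8) summed to 3879, 4651 and 3962 FPKM in p53 knockout skin, 5099, 6418 and 6766 FPKM in Krt17 knockout skin, and 2545, 5600 and 4302 FPKM in wild-type skin. Hair shaft and matrix markers (11 of 12 reaching 1 FPKM) summed to 3871, 2605 and 3714 FPKM in p53 knockout skin, 6105, 6456 and 9118 FPKM in Krt17 knockout skin, and 5373, 5372 and 9118 FPKM in wild-type skin. Basal epidermal markers (7 of 7) ran from 2493 to 4695 FPKM over the 9 groups. Fibroblast markers were lower and hair markers higher in the 24 h groups where the replication genes were low, and their part in the result was not tested.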

How the data were processed

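Back skin and footpad were analysed as 2 separate tables of FPKM, 1 mean per group of 2 samples, as deposited by the authors, with no count, depth or error per sample. TopHat2 2.1.0, Cufflinks 2.2.1 and the mm10 build are named per the submitters' processing notes. The annotation, strand setting and way of averaging are not given in the sources used here, so reads of members that share exon sequence with a gene on the other strand cannot be told apart (Gins2 with Gse1, Chaf1a with Ubxn6, Fen1 with Gm10143 and 11 others).

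Ratios were log2 of (mean FPKM + 1) over all genes with at least 1 FPKM in 1 group of the tissue. Repeated symbols were left out (240 rows in each tissue), and listed zeros of genes with a median above 5 FPKM (19 in back skin, 32 in footpad, no member) were treated as missing. The read depth is unknown. The count of members past 2-fold and 1.5-fold was set beside that of all genes over 32 comparisons, with no test. The calculation was tested on simulated data. Positions come from GENCODE for GRCm38 and promoters from RefSeq (GRCm38.p6). Members and lists were chosen with earlier results of these data known. Full values are given for chosen members of each role in back skin, with the 3 highest and 3 lowest of a comparison. In footpad they are given for some roles only, and the members shown are not always the same. Mcm3 and Gins2, shown there, stood among the lowest members in Krt17 knockout footpad at T3. Of the other lists, the 2 highest and 2 lowest genes in wild-type back skin at 24 h and footpad at T3 could be named. Other members were named where their values stood out. Python 3.11.15, numpy 2.4.6, pandas 2.3.3 and matplotlib 3.10.9 were used.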

Additional observations from a re-analysis of the deposited data

How the results depend on the processing

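No paired analysis was possible because the tables hold group means only, and leaving out a replicate was not run for the same reason. The median over the members changed sign once, for the T9 response of Krt17 knockout less that of wild-type footpad, which was 0.06 and became -0.0013 after rescaling to a common median. Dropping the filter on low values or keeping listed zeros could move no member median or count. All 45 members passed the filter and none was listed at 0. The values over all genes did change without the filter. In wild-type back skin at 24 h their median went from -0.20 to -0.02, and their share at least 2-fold lower from 3.41% to 1.80%. Counts below are followed in brackets by the share of all genes that far apart at the same setting. With 0.1 FPKM added in place of 1, members at least 2-fold lower numbered 1 (8.37%) and 20 (8.32%) in wild-type back skin at 6 h and 24 h. They numbered 2 (3.52%) and 5 (3.29%) in Krt17 knockout back skin and 2 (3.39%) in wild-type footpad at T3. For the T3 response of Krt17 knockout less that of wild-type footpad there were 7 (2.98%). At least 1.5-fold lower were 14 (7.66%) in wild-type footpad at T3 and 17 (7.63%) for that difference of responses. At least 1.5-fold higher were 1 (5.51%) in p53 knockout back skin at 24 h and 4 (14.9%) in wild-type footpad at T6. Medians were 1.17 for p53 knockout against wild-type back skin at 24 h, 1.05 for the difference of their responses and -0.71 in Krt17 knockout footpad at T3. After rescaling to a common median, wild-type back skin had a median of -0.20 at 6 h, with 3 members (8.51%) 1.5-fold lower and 1 (8.05%) higher. At 24 h its median was -0.64, with 5 members (1.78%) 2-fold lower. The Krt17 knockout response less that of wild-type back skin was -0.16 at 6 h and 0.13 at 24 h. Medians for p53 knockout against wild-type were 0.30 at 6 h and 0.79 at 24 h, with 15 members (2.28%) 2-fold higher at 24 h. For the difference of responses they were 0.14 and 0.66, with 7 (2.30%) 2-fold higher at 24 h. In footpad, 1.5-fold higher were 1 (8.03%) in wild-type skin at T6 and 2 (6.11%) in Krt17 knockout skin at T9. The cause was not tested beyond the settings' own construction. Each value rests on a mean of 2 samples whose spread is unknown, and the T points have no stated unit.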

Other observations

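Some members had irregular levels in single groups. In p53 knockout back skin at 0, 6 and 24 h, Pold2, a polymerase delta subunit, stood at 28.4, 16.0 and 33.9 FPKM, against 23.2, 15.4 and 20.9 FPKM in Krt17 knockout skin and 23.0, 22.8 and 16.4 FPKM in wild-type skin. Its 6 h level was thus low in both knockouts and not in wild-type skin. Rfc5, a clamp loader subunit, stood at 13.2, 9.65 and 16.2 FPKM in p53 knockout skin, 12.1, 11.8 and 8.52 FPKM in Krt17 knockout skin and 10.1, 6.22 and 6.75 FPKM in wild-type skin. Rfc4, in the same complex, had levels over T0 to T9 of 19.6, 15.4, 10.4 and 22.2 FPKM in Krt17 knockout footpad and 21.1, 12.6, 18.3 and 17.6 FPKM in wild-type footpad, and it was lowest at T6 in the knockout, when most members had left their low point.

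Outside the members, E2f3, an E2F activator of S-phase genes, had levels with no regular order. Over 0, 6 and 24 h its levels were 5.33, 26.9 and 19.8 FPKM in p53 knockout back skin, 9.67, 30.3 and 16.9 FPKM in Krt17 knockout skin and 33.8, 20.4 and 51.2 FPKM in wild-type skin. In footpad, over T0 to T9, its levels were 27.3, 6.53, 23.5 and 11.6 FPKM in Krt17 knockout skin and 2.38, 26.5, 2.53 and 2.18 FPKM in wild-type skin. Cyclin D2 (Ccnd2) stood at 10.6, 29.2, 26.5 and 18.6 FPKM in Krt17 knockout footpad and 15.2, 39.4, 35.7 and 14.1 FPKM in wild-type footpad, and so was high at T3, where the replication genes were lowest.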
